A study of Drosophila melanogaster with 90 samples.

Results

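Oregon R pupae of Drosophila melanogaster were spun at 12g in the Large Diameter Centrifuge (LDC) inside a hermetically closed container, and were set against pupae kept in the same kind of closed container at static 1g outside the centrifuge. These are 6 arrays (3 at 12g and 3 at 1g) of the 40 arrays of the LDC and of the 90 arrays of the whole series. They were chosen by their labels alone, as the arrays with oxygen limitation (hypoxia) and no cold step before the exposure. A pair of other hypoxia groups of the LDC were read beside them, namely 3 arrays of the rotational control at 1g (1g-rot) and 2 arrays at 6g. All 4 groups shared the closed container, a labelled temperature of 24°C and a labelled exposure of 3.5 days of metamorphosis, while the study's methods give a slightly different temperature and time. Each array held RNA from a pool of several late pupae collected just before the adult emerged. The closed container is the whole oxygen treatment, so the oxygen level itself is not given, and both sexes could be in a pool. The 12g and 6g groups in hypoxia came from a second parallel experiment and the 1g and 1g-rot groups from the first. Gravity and experiment therefore cannot be told apart in 12g against 1g, whereas 12g against 6g lies within the second experiment and 1g-rot against 1g lies within the first.

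During metamorphosis the fly is rebuilt inside the pupal case. Pulses of the steroid ecdysone start each step, and juvenile hormone holds back or modifies steps of maturation. Shortly before the adult emerges the epidermis finishes secreting the adult cuticle, the flight muscles and eyes are complete, and the male accessory glands begin to make the seminal proteins that are passed to the female at mating. Low oxygen stabilises the transcription factor Sima, whose known targets include the growth factor that draws tracheal branches towards poorly supplied tissue and inhibitors of the growth kinase TOR.

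The pools of all groups carried broad marks of late pupae, with bright flight muscle actin and dim larval glue signal. The flight muscle actin Act88F measured 14.64, 14.65 and 14.69 in 12g pupae and 14.58 to 14.59 in 1g pupae, on the log2 scale of the deposited signal, on which 1 unit is a doubling. The larval glue gene Sgs3 lay at 4.73, 4.56 and 4.73 in 12g pupae and between 4.84 and 5.16 in 1g pupae, close to the dim end of the arrays. Array medians spanned 6.42 to 6.44 at 12g and 6.45 to 6.49 at 1g. Correlation between arrays, over all probe sets, was 0.9921 for 12g replicates 1 and 2 but 0.9677 and 0.97 between these and 12g replicate 3, which stood apart, and 0.988 to 0.9894 among the 1g arrays.

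Centrifugation at 12g in the closed container went with differences in 19.3% of the measured genes. Of 18769 probe sets, limma called 3291 at an adjusted p under 0.05 (17.5%), of which 1527 were higher (8.14%) and 1764 lower (9.4%) at 12g. On 1 probe set a gene, the brightest, 1261 of 11982 genes rose (10.5%) and 1052 fell (8.78%), and the median log2 fold change of all genes was 0.003. The counts of the gene lists below are to be read beside these shares. The p-values measure the spread between arrays within groups, each array a pool. This spread is shared over all 40 LDC arrays and is not that of the 6 arrays alone. It includes open 1g and 1g-rot groups that hold arrays of both experiments. The count depended on single arrays, since 1588 probe sets were called without 12g replicate 1, 1675 without 1g replicate 2, 1209 without 1g replicate 1 and 1932 without 12g replicate 2. It fell to 1619 when the fit held a term that separates the experiments (the experiment term), and 873 of these were among the 3291. That term is estimated in open containers, from 1g and 1g-rot groups that hold arrays of both experiments, and the difference between experiments correlated over probe sets at 0.392 between constant temperature and cold step.

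**Figure D1:**
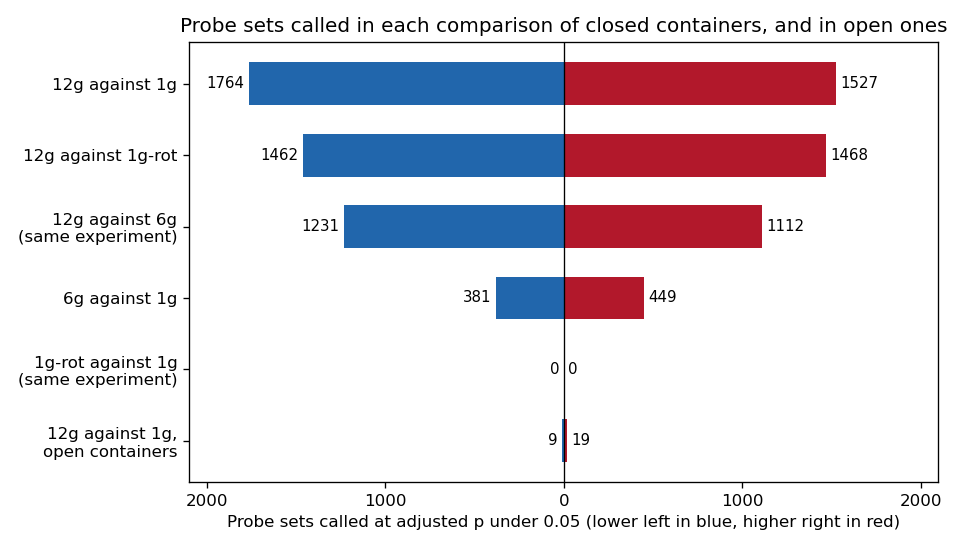
Number of probe sets called higher or lower (adjusted p under 0.05, limma) in each comparison within or against the hypoxia groups of the LDC. The comparison of 12g with 1g in hypoxia (3 arrays each) holds 3291 calls, against 0 for the rotational control. In open containers 12g (2 arrays) against 1g (3 arrays) holds 28.

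The neighbouring comparisons put this number in context. Between 12g and 1g-rot pupae 2930 probe sets were called (15.6%), and between 12g and 6g pupae, both of the second experiment, 2343 (12.5%). The 6g pupae differed from 1g pupae in 830 probe sets (4.42%), a number that was 136 with the experiment term, 157 without 6g replicate 2 and 161 without 6g replicate 1. Rotation alone gave 0 calls by limma between 1g-rot and 1g pupae, with 316 probe sets at an unadjusted p under 0.05 (1.68%) and 9 at an unadjusted p under 0.001. In open containers without cold step, 12g (2 arrays) against 1g (3 arrays) gave 28 calls (0.149%). In cold step with hypoxia, 12g (2 arrays) against 1g (2 arrays) gave 79 (0.421%). Fewer arrays entered these comparisons than the main one, and the open 1g group holds arrays of both experiments. The part of this in the lower counts was not tested. The difference at 12g was itself different between closed and open containers in 2714 probe sets (14.5%), but the open 12g arrays are of the first experiment, and with the experiment term the test called 340.

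Of the 10 largest rises in hypoxia at 12g, 5 were genes of the male reproductive tract, among them Spn38F, Ebp and Acp36DE. Of 16 measured accessory gland proteins, 11 rose and 0 fell, with a median log2 fold change of 2.25, and 14 of the 16 had all 12g arrays above all 1g arrays, as had 16.5% of all probe sets. Here and below, such shares of non-overlapping arrays are over all probe sets, dim ones included, whereas the lists hold 1 probe set a gene. Acp36DE, which is needed for sperm storage in the mated female, measured 9.98, 9.60 and 8.38 in 12g pupae and 6.62, 5.21 and 5.20 in 1g pupae. All 12g arrays were above all 1g arrays, and the log2 fold change was 3.64 (SE 0.782, adjusted p = 0.00291). Spn38F, a serpin of the seminal fluid, measured 9.84, 8.39 and 6.62 in 12g pupae and 4.90, 4.54 and 4.39 in 1g pupae, a log2 fold change of 3.67 (SE 0.684, adjusted p = 0.000951). Both genes were brightest in 12g replicate 1 and dimmest in 12g replicate 3 within their group. SP, the sex peptide that changes the behaviour of the mated female, showed the same order, with 8.45, 6.62 and 6.15 in 12g pupae and 5.17, 4.96 and 4.69 in 1g pupae (log2 fold change 2.13, SE 0.458, adjusted p = 0.00289). Acp98AB and the serpin-like Acp76A rose by 3.43 and 2.86 on the log2 scale. Sfp53D, another seminal fluid gene, was brightest in the third array instead, with 7.50, 6.70 and 8.31 in 12g pupae and 4.96, 5.39 and 5.03 in 1g pupae (log2 fold change 2.38, adjusted p = 0.000302). In 6g pupae Acp36DE lay at 4.65 and 4.36, and Spn38F at 4.12 and 4.06, near the dim end of the arrays. In 1g-rot pupae the same genes reached 7.37 and 6.53 in replicate 2, and lay at 4.64 and 4.45 in replicate 1, so that the 1g-rot arrays overlapped the 1g arrays.

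The mean log2 level of the 16 accessory gland genes was 9.29, 8.66 and 7.68 in the 12g arrays and 6.79, 6.39 and 6.11 in the 1g arrays. In the other groups it was 5.24, 7.51 and 6.39 in 1g-rot pupae and 5.15 and 5.05 in 6g pupae. Within the second experiment 14 of the 16 genes rose in 12g against 6g pupae and 0 fell (median log2 fold change 3.33), beside 976 of all 11982 genes that rose (8.15%). With the experiment term 6 of the 16 were called higher at an almost equal median of 2.25, and without 12g replicate 1 the count was 4. In whole pupae, more cells of a type and more RNA per cell cannot be told apart. Markers of male germ cells and of females were read beside these genes. Of 39 testis genes 6 rose and 0 fell (median 0.37, with 0 called under the experiment term or without 1g replicate 1 and 10 without 12g replicate 3), and the mean level of the testis list was 9.38, 9.18 and 8.24 in the 12g arrays against 8.32, 8.32 and 8.76 in the 1g arrays. The sperm tail gene dj lay at 8.26, 8.04 and 6.83 in 12g pupae and at 6.41, 6.30 and 6.93 in 1g pupae (log2 fold change 1.16, adjusted p = 0.0386), with overlapping groups, and Mst87F was not called. The yolk protein gene Yp1, made by female fat body and ovary, lay at 6.93, 5.70 and 7.87 in 12g pupae and at 5.09, 5.79 and 5.28 in 1g pupae, and was not called. Yp2 lay at 9.68, 7.40 and 10.63 in 12g pupae and at 6.33, 8.09 and 6.43 in 1g pupae (log2 fold change 2.29, adjusted p = 0.12), and Yp3 at 9.58, 7.25 and 10.45 in 12g pupae and at 6.12, 8.04 and 6.82 in 1g pupae (log2 fold change 2.10, adjusted p = 0.0851). These 3 yolk genes were brightest in 12g replicate 3, and the groups overlapped for each. Yp2 and Yp3 were called higher at 12g against 6g (3.60, adjusted p = 0.0409 and 3.63, adjusted p = 0.0102) and against 1g-rot (3.46, adjusted p = 0.0251 and 3.39, adjusted p = 0.0085). Of 22 ovary and yolk genes 0 rose and 5 fell against 1g (median -0.25), beside 8.78% of all genes that fell. Under the experiment term, or without 1g replicate 1 or 2, 0 were called. The mean level of this list was 5.90, 5.56 and 6.21 in the 12g arrays, and dim probe sets as a whole lay lower at 12g (given below). The list was also lower in the second than in the first experiment in open controls (median -0.15). The part of these male and female markers in the accessory gland result was not tested.

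**Figure D2:**
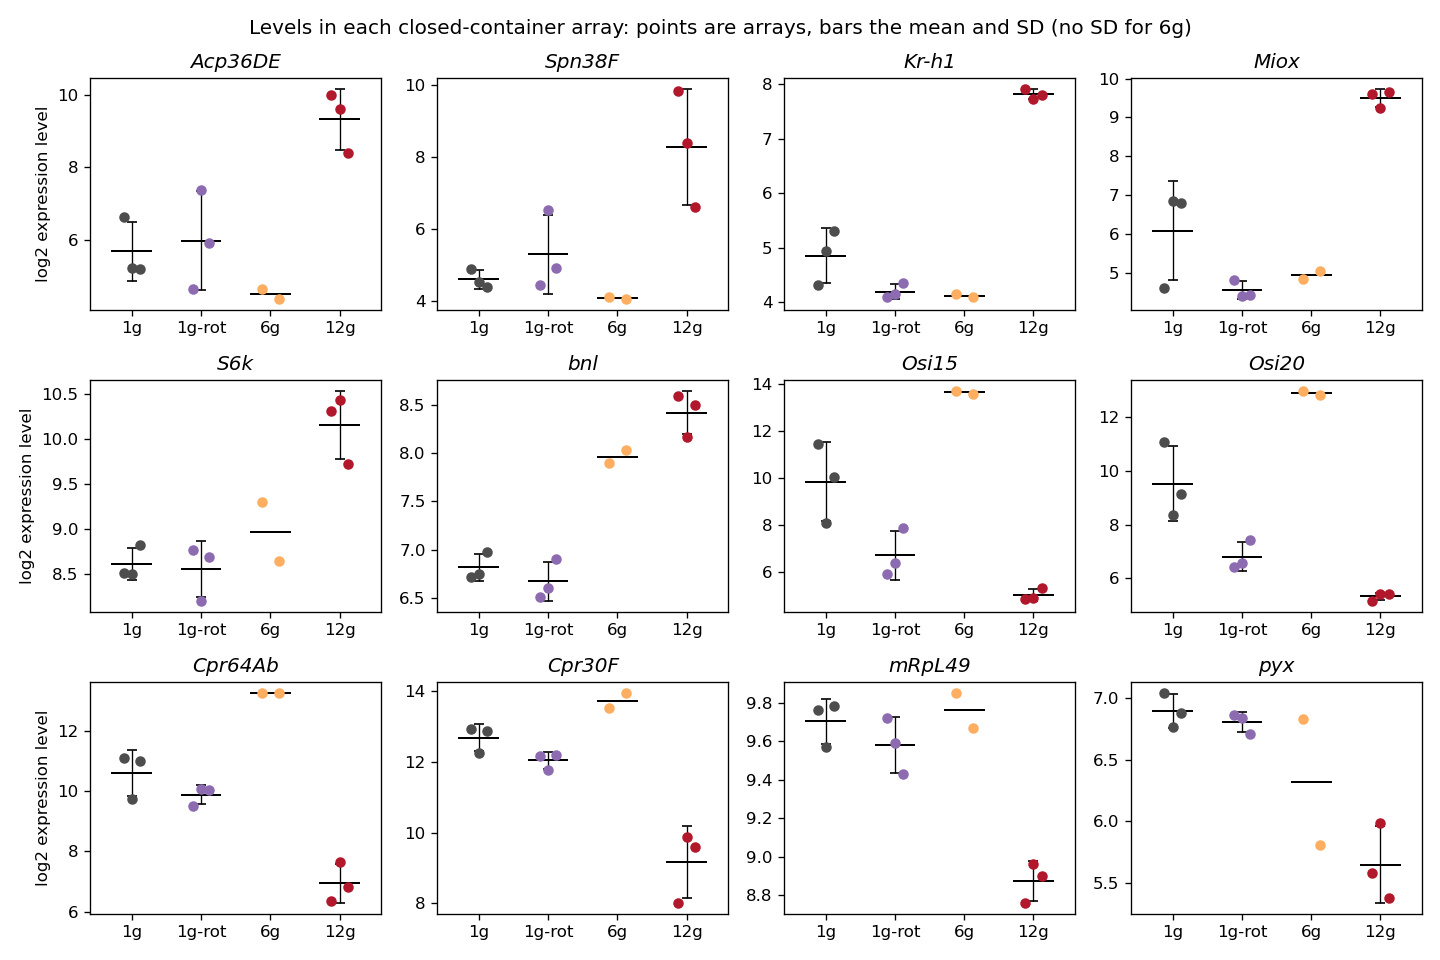
Log2 signal of 12 genes in every hypoxia array of the LDC, from 1g through 1g-rot and 6g to 12g. Each point is an array, the bar is the group mean and the whisker is 1 SD (not drawn for the 2 arrays at 6g). Acp36DE, Spn38F, Kr-h1 and Miox are highest at 12g, while Osi15, Osi20 and the Cpr genes are lowest there and highest at 6g.

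Genes of the ejaculatory bulb and other seminal fluid genes moved less evenly. Of 23 measured, 7 rose and 1 fell, with a median of 0.35, and without 12g replicate 1 there were 3 that rose. The ejaculatory bulb proteins, which form the mating plug, were led by 1 array. Ebp measured 9.96, 6.94 and 6.89 in 12g pupae and 4.20, 4.37 and 4.25 in 1g pupae, a log2 fold change of 3.66 (SE 0.763, adjusted p = 0.00233), which became 2.41 with the experiment term (adjusted p = 0.0943). EbpII measured 9.72, 5.45 and 6.05 in 12g pupae and 4.13, 4.19 and 4.04 in 1g pupae (log2 fold change 2.95, adjusted p = 0.0417). Its call was lost without 12g replicate 1, at 1.63 (adjusted p = 0.273), without each of the 1g arrays (adjusted p = 0.0724 to 0.109) and with the term, at 1.00 (adjusted p = 0.66). The sperm gene djl rose by 1.93 (adjusted p = 0.0138), and its call was lost without either of 12g replicates 1 and 2 and 1g replicates 1 and 2 (adjusted p = 0.052 to 0.0802) and with the term (1.24, adjusted p = 0.258).

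Cuticle genes were low at 12g. Of 105 measured cuticle proteins, 37 fell and 1 rose, with a median log2 fold change of -0.46, and 55 had all 12g arrays below all 1g arrays, beside 28.4% of all probe sets. Many are chitin-binding proteins of the Cpr family, which stiffen the cuticle. Cpr64Ab measured 6.35, 7.64 and 6.83 in 12g pupae and 11.08, 9.72 and 11.01 in 1g pupae, a log2 fold change of -3.66 (SE 0.635, adjusted p = 0.000502). Cpr30F measured 8.01, 9.89 and 9.60 in 12g pupae and 12.93, 12.26 and 12.89 in 1g pupae, a log2 fold change of -3.53 (SE 0.688, adjusted p = 0.00136). The groups did not overlap for either gene. Cpr92A, Cpr47Ef and Cpr47Eg had log2 fold changes of -2.32, -1.32 and -0.92. Cpr30B fell by 3.82 (SE 1.08, adjusted p = 0.0176), but its 12g arrays spanned 7.82 to 11.00, and the call was lost without 12g replicate 1 (-2.96, adjusted p = 0.103) and without 1g replicate 1 (-3.65, adjusted p = 0.0701).

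Cpr64Ab, Cpr30F and Cpr30B were brightest in the 6g arrays. Cpr64Ab lay at 13.25 in both 6g arrays, so that 12g against 6g gave -6.31 (adjusted p = 6.23e-07) and 6g against 1g gave 2.65 (adjusted p = 0.0312). In 1g-rot pupae it lay at 9.51, 10.08 and 10.03, and 12g against 1g-rot gave -2.93 (adjusted p = 0.00255). Over the whole list 34 of 105 genes fell and 3 rose in 12g against 6g pupae, with a median of -0.48, where 8.48% of all genes fell. With the experiment term 21 fell and 1 rose in 12g against 1g (median -0.17). Without 1g replicate 1 there were 15 falling members and without 12g replicate 1 there were 17. The mean level of the list was 7.16, 7.29 and 7.56 in the 12g arrays and 8.10, 8.01 and 7.97 in the 1g arrays, and 8.44 and 8.28 in the 6g arrays.

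Among the 10 largest falls were 4 genes known only by their CG identifiers. CG14095 measured 7.56, 9.18 and 8.75 in 12g pupae and 12.63, 11.79 and 12.58 in 1g pupae, a log2 fold change of -3.84 (adjusted p = 0.000207). The log2 fold change was -3.43 for CG13047 (adjusted p = 3.56e-05), -3.43 for CG13721 (adjusted p = 0.00709) and -3.23 for CG18180 (adjusted p = 0.00436). These 4 calls held with the experiment term and without any single one of the 6 arrays. Of the 20 leading genes, 16 were called with the term, 15 without each of the 6 arrays in turn, and 14 under both.

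The Osiris genes, a family expressed in epithelia that secrete cuticle, held the largest single falls. Of 23 measured, 5 fell and 0 rose, beside 8.78% of all genes that fell. All 23 had a negative log2 fold change (median -0.43). In 17 of them all 12g arrays were below all 1g arrays, as in 28.4% of all probe sets. Osi15 measured 4.87, 4.90 and 5.32 in 12g pupae and 11.44, 8.10 and 10.05 in 1g pupae, a log2 fold change of -4.83 (SE 0.970, adjusted p = 0.00169). Osi20 measured 5.16, 5.42 and 5.41 in 12g pupae and 11.09, 8.37 and 9.13 in 1g pupae, a log2 fold change of -4.20 (SE 0.770, adjusted p = 0.000843). The 12g arrays were tight and dim, while the 1g arrays spread widely and were brightest in replicate 1. Osi19, Osi18 and Osi9 had log2 fold changes of -3.68, -3.17 and -2.55, and the call for Osi19 was lost without 1g replicate 1 (-2.74, adjusted p = 0.0539).

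Osiris levels did not follow the g level in 1 direction. Osi15 lay at 5.91, 6.38 and 7.88 in 1g-rot pupae and at 13.72 and 13.60 in 6g pupae. Thus 12g against 6g gave -8.63 (adjusted p = 2.6e-06), 6g against 1g gave 3.80 (adjusted p = 0.0431), and 12g against 1g-rot gave -1.69 (adjusted p = 0.231). Against 1g-rot 1 Osiris gene fell (8.24% of all genes), against 6g pupae 9 fell (8.48% of all genes), and in 6g against 1g pupae 7 rose (3.22% of all genes). None of the 5 genes that fell against static 1g (Osi15, Osi20, Osi19, Osi18 and Osi9) was called by limma against the rotational control (adjusted p = 0.116 to 0.55).

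Other genes of the late epidermis were less uniform. Of 30 tanning and pigment enzymes 5 rose and 5 fell (1 and 2 without either 12g replicate 1 or 1g replicate 1), and of 38 genes of chitin synthesis and remodelling 2 rose and 0 fell. The tyrosine hydroxylase gene ple, which makes the DOPA used to harden and darken cuticle, measured 6.01, 6.46 and 6.47 in 12g pupae and 4.77, 4.97 and 4.78 in 1g pupae (log2 fold change 1.47, SE 0.210, adjusted p = 8.23e-05). It also exceeded the 6g pupae, by 1.38 (adjusted p = 0.00012). Gasp, a chitin-binding protein of the tracheal lining, rose by 0.80 (adjusted p = 0.00335), did not differ from 6g by the test (-0.08, adjusted p = 0.914), and lost the call with the term (0.39, adjusted p = 0.192).

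**Figure D3:**
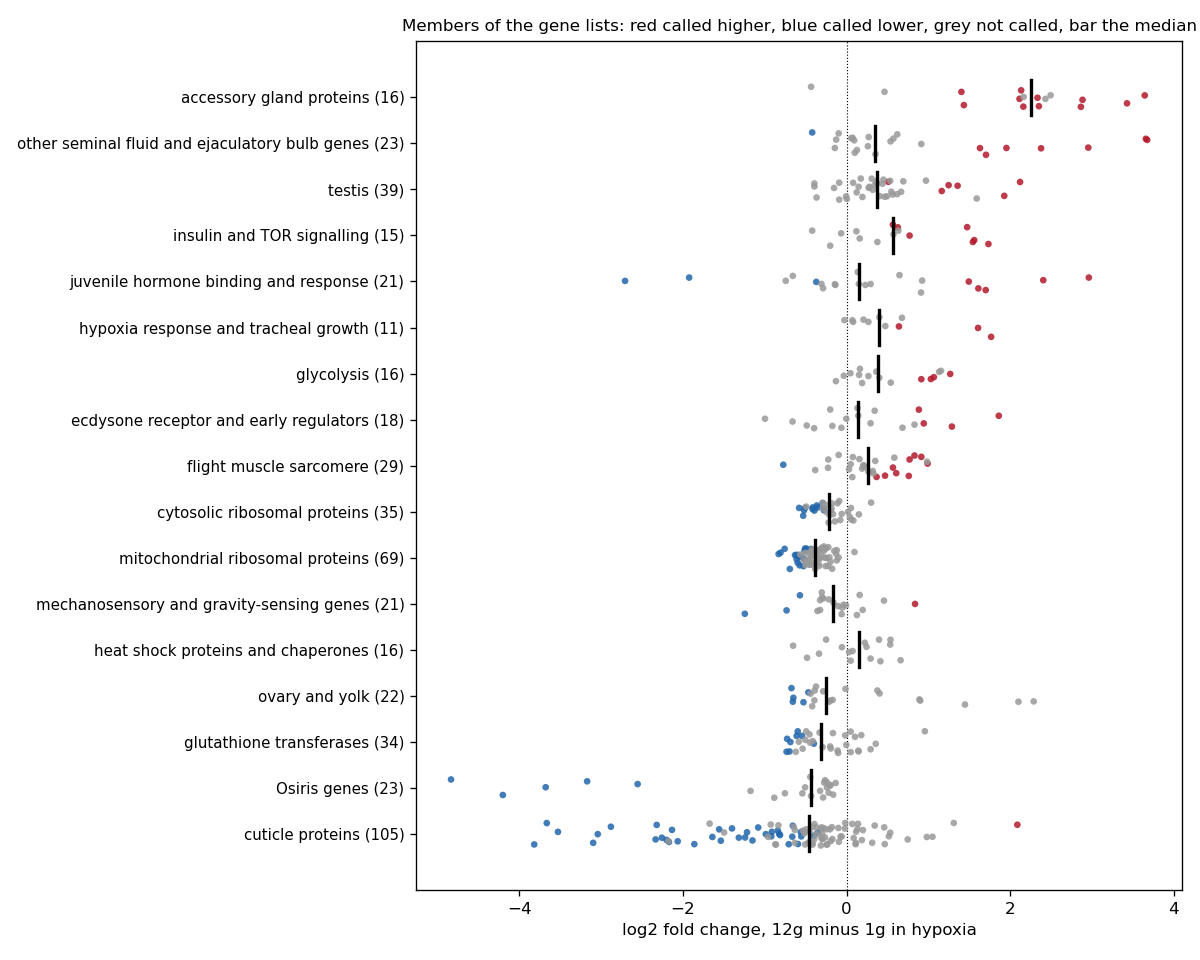
Log2 fold change of 12g against 1g in hypoxia for every measured member of 17 gene lists (points), with the median of each list (bar). Accessory gland genes lie at a median of 2.25, cuticle and Osiris genes at -0.46 and -0.43, and insulin and TOR genes at 0.57, beside a median of 0.003 over all genes.

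Kr-h1, the transcription factor through which juvenile hormone acts, measured 7.91, 7.73 and 7.79 in 12g pupae and 4.31, 4.93 and 5.31 in 1g pupae. This log2 fold change of 2.96 had the smallest error among the 10 largest rises (SE 0.315, adjusted p = 4.85e-06). Kr-h1 lay between 4.09 and 4.35 in all 1g-rot and 6g arrays, so that it was more than 2 units brighter in the 12g arrays than in any other hypoxia array. Jhedup, a relative of the esterase that degrades juvenile hormone, measured 8.36, 8.67 and 9.20 in 12g pupae and 5.24, 7.03 and 6.75 in 1g pupae (log2 fold change 2.40, adjusted p = 0.00202). Relatives of the juvenile hormone carriers went down. Jhbp4 measured 4.79, 6.54 and 5.35 in 12g pupae and 8.59, 7.71 and 8.50 in 1g pupae (log2 fold change -2.71, adjusted p = 0.00131), and Jhbp6 fell by 1.92 (adjusted p = 0.000968), with its second probe set at -2.16. At 6g these carrier genes were brighter still, with 9.61 and 9.67 for Jhbp4. Of the 21 genes of juvenile hormone binding and response 5 rose and 3 fell (median 0.15), and the median was -0.06 after quantile normalization, so the sign of the list's median depended on the scaling. Without 1g replicate 1 there were 2 higher and 2 lower members.

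Of 18 ecdysone receptor and early response genes 4 rose and 0 fell, beside 10.5% of all genes that rose. Eip93F, a transcription factor that directs the adult step of metamorphosis, measured 9.30, 9.64 and 9.77 in 12g pupae and 7.67, 7.61 and 7.85 in 1g pupae (log2 fold change 1.86, SE 0.344, adjusted p = 0.000888). Its second, dimmer probe set gave 0.18 and was not called. The orphan nuclear receptor gene Hr39 rose by 1.29 (adjusted p = 0.00513), with 3 other probe sets not called (0.21, 0.51 and 0.22), and the kinase gene Eip63E rose by 0.94 (adjusted p = 0.00264). Blimp-1, a transcriptional repressor induced by ecdysone, measured 8.12, 8.05 and 8.97 in 12g pupae and 6.94, 7.87 and 7.68 in 1g pupae (log2 fold change 0.88, adjusted p = 0.0405), and its call was lost without 12g replicate 1 or 3 or 1g replicate 1 (adjusted p = 0.0572 to 0.225). Within the second experiment 12g against 6g gave 1.92 for Blimp-1 (adjusted p = 0.000158), 1.02 for Eip93F (adjusted p = 0.0888), 0.54 for Eip63E (adjusted p = 0.129) and -0.20 for Hr39 (adjusted p = 0.864). With the experiment term Blimp-1 was called (1.29, adjusted p = 0.0201), and Eip93F (0.95, adjusted p = 0.0647), Eip63E (0.71, adjusted p = 0.0676) and Hr39 (0.49, adjusted p = 0.329) were not.

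Of 15 insulin and TOR signalling genes 7 rose, 0 fell and 8 did not pass the test, beside 10.5% of all genes that rose. The log2 fold change was positive in 12 and negative in 3, with a median of 0.57. InR, the insulin receptor, measured 8.35, 8.24 and 8.86 in 12g pupae and 6.48, 7.01 and 7.28 in 1g pupae (log2 fold change 1.56, SE 0.338, adjusted p = 0.00307). S6k, the ribosomal kinase switched on by TOR, measured 10.31, 10.43 and 9.72 in 12g pupae and 8.51, 8.50 and 8.82 in 1g pupae (log2 fold change 1.54, SE 0.256, adjusted p = 0.000337). Akt, the kinase below the receptor, rose by 1.47 (adjusted p = 0.00194), and foxo, the transcription factor that insulin keeps out of the nucleus, rose by 1.73 (adjusted p = 0.00268). All 4 genes had non-overlapping groups. Within the second experiment InR, S6k and foxo were higher at 12g than at 6g by 1.29, 1.18 and 1.35 (adjusted p = 0.0205, 0.00479 and 0.0273), while Akt was at 0.99 (adjusted p = 0.0509). With the term InR and S6k were called, and Akt (0.69, adjusted p = 0.145) and foxo (0.71, adjusted p = 0.209) were not. Without any single array 6 or 7 of the 15 genes were called higher.

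**Figure D4:**
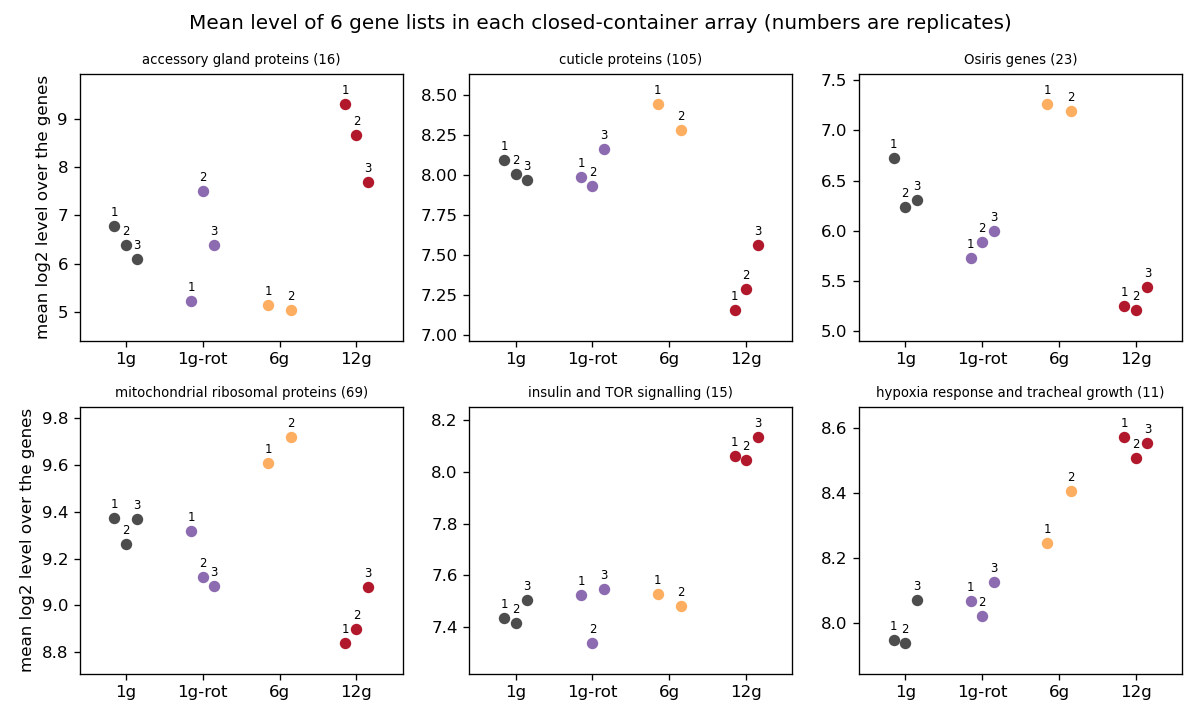
Mean log2 signal of 6 gene lists in every hypoxia array of the LDC, from 1g through 1g-rot and 6g to 12g (points are arrays). The insulin and TOR list lies at 8.05 to 8.13 in the 12g arrays and at 7.34 to 7.55 in all others. The mitochondrial ribosomal list lies at 8.84 to 9.08 in the 12g arrays, at 9.08 to 9.32 in the 1g-rot arrays and at 9.61 and 9.72 in the 6g arrays.

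Low oxygen was common to all these pupae, so the hypoxia genes were compared for a further difference at 12g. Of 11 genes of the hypoxia response and tracheal growth 3 rose and 0 fell (median 0.40), beside 10.5% of all genes that rose. The FGF bnl, which attracts growing tracheae, measured 8.60, 8.17 and 8.50 in 12g pupae and 6.72, 6.75 and 6.98 in 1g pupae (log2 fold change 1.61, SE 0.309, adjusted p = 0.0012), while its 2 dimmer probe sets gave 0.31 and 0.03 and were not called. In 6g pupae bnl was at 7.90 and 8.03, and 12g against 6g gave 0.46 (adjusted p = 0.543). REPTOR, a transcription factor active when TOR is low, rose by 1.77 (adjusted p = 0.00142) and exceeded 6g by 1.70 (adjusted p = 0.00282). The TOR inhibitor scyl rose by 0.64 (adjusted p = 0.0195), a call lost without 12g replicate 3 (0.40, adjusted p = 0.12) and without 1g replicate 1 (0.56, adjusted p = 0.095). With the experiment term 0 of the 11 genes were called in either direction, at a median of 0.52, with bnl at 0.76 (adjusted p = 0.0937), REPTOR at 0.93 (adjusted p = 0.0999) and scyl at 0.55 (adjusted p = 0.155).

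In energy metabolism the glycolysis and respiratory chain lists were read side by side. Of 16 glycolysis genes 4 rose and 0 fell (median 0.38), beside 10.5% of all genes that rose. Against 6g 5 were higher and 0 lower, beside 8.15% of all genes that rose. In 12g against 1g 1 rose without 12g replicate 3 or without 1g replicate 1. Gpdh1, which makes the glycerol phosphate used in flight muscle, measured 13.62, 13.60 and 13.72 in 12g pupae and 12.66, 12.75 and 12.79 in 1g pupae (log2 fold change 0.91, adjusted p = 0.00339), and exceeded 6g by 1.52 (adjusted p = 1.97e-05). Of its other probe sets 1 was called (0.81) and 2 were not (0.55 and 0.66). The aldolase gene Ald1 rose by 1.03 (adjusted p = 0.0459), lost the call without any one of the 6 arrays, and had a value of -0.23 with the term (adjusted p = 0.531). Gpdh1 also lost the call with the term (0.40, adjusted p = 0.224). Of 72 genes of the respiratory chain and ATP synthase 0 rose and 4 fell (median -0.12). This share of 5.56% was under the 8.78% of all genes that fell. The count of falling genes was 0 without any one of 12g replicates 1 and 2 and 1g replicates 1 and 2, and 7 without 12g replicate 3. It was 8 with the experiment term (median -0.26) and 11 after quantile normalization.

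Mitochondrial ribosomal proteins, which translate the few proteins encoded in mitochondria, moved down against static 1g with small values of the same sign. Of 69 measured 18 fell and 0 rose, and 68 had a negative value, with a median of -0.39. mRpL49 measured 8.76, 8.96 and 8.90 in 12g pupae and 9.76, 9.57 and 9.78 in 1g pupae (log2 fold change -0.83, SE 0.136, adjusted p = 0.000302), and mRpL21 and mRpL2 gave -0.81 and -0.69. The list fell further within the second experiment, where 48 of 69 were lower at 12g than at 6g and 0 higher (median -0.75). Of all genes 8.48% fell in 12g against 6g. Against 1g-rot 5 of 69 were lower and 0 higher (median -0.22), beside 8.24% of all genes that fell. The mean level of the list was 9.32, 9.12 and 9.08 in the 1g-rot arrays and 8.84, 8.90 and 9.08 in the 12g arrays. The count in 12g against 1g depended on the processing, being 62 with the experiment term, 53 after quantile normalization, 10 after median centring and 4 without 1g replicate 1, while the median stayed negative in each. Cytosolic ribosomal proteins fell too, 12 of 35 with a median of -0.22, among them RpS7 (fell by 0.36, adjusted p = 0.00616). This second count was 0 with the term and 1 without 12g replicate 2, and 0 of the 35 genes were called against 6g.

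Among single metabolic genes, Miox, the oxygenase that opens myo-inositol, measured 9.61, 9.24 and 9.66 in 12g pupae and 4.61, 6.85 and 6.80 in 1g pupae (log2 fold change 3.42, SE 0.623, adjusted p = 0.000789). It lay between 4.41 and 5.04 in all 1g-rot and 6g arrays and was higher at 12g than at 6g by 4.56 (adjusted p = 3.06e-05). CG4607 rose by 2.94 (adjusted p = 0.00169). CG9259 rose by 3.18 (adjusted p = 0.0189), a call lost without 12g replicate 1 or 1g replicate 1 or 2 (adjusted p = 0.0519 to 0.0734) and with the term (1.68, adjusted p = 0.382). The cytochrome P450 gene Cyp313a1 rose by 2.92 (adjusted p = 0.031), a call lost without 12g replicate 1 or 3 or 1g replicate 1 (adjusted p = 0.0875 to 0.182) and with the term (2.61, adjusted p = 0.193). Of 86 cytochrome P450 genes in all, 10 rose and 9 fell (4 and 5 without 1g replicate 1), shares near those of all genes. Of 34 glutathione transferases 0 rose and 8 fell (median -0.31, and 3 fell without 12g replicate 2 or 1g replicate 1), with GstE13 at -0.60 (adjusted p = 0.0021) and GstE2 at -0.73 (adjusted p = 0.00645). Gclc, the catalytic subunit of the enzyme that starts glutathione synthesis, measured 9.23, 9.06 and 9.67 in 12g pupae and 7.77, 8.43 and 8.27 in 1g pupae, a log2 fold change of 1.16 (SE 0.174, adjusted p = 0.00013).

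Stress and defence lists had few or no calls. Limma called 0 of 16 heat shock proteins and chaperones (median 0.15), 0 of 5 Turandot genes (median -0.15) and 0 of 21 bomanins and antimicrobial peptides (median 0.29) in 12g against 1g pupae. Against 6g pupae 7 of these 21 immune peptides were higher at 12g and 0 lower, with a median of 1.02, beside 8.15% of all genes that rose. The mean level of these peptides was 7.86, 7.51 and 9.07 in the 12g arrays and 7.27 and 7.41 in the 6g arrays, so 12g replicate 3 was brightest. Against 1g-rot 4 were higher and 3 lower (median -0.24).

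Genes of gravity and touch sensing were read because the stimulus is mechanical. Of 21 measured 3 fell and 1 rose, with a median of -0.16, beside 8.78% and 10.5% of all genes. The list was also lower in the second than in the first experiment in open controls (median -0.18). With the experiment term its median was 0.0, with 0 higher and 1 lower. pyx, a TRP channel that adult flies need to sense gravity, measured 5.58, 5.99 and 5.38 in 12g pupae and 7.04, 6.76 and 6.88 in 1g pupae (log2 fold change -1.24, SE 0.278, adjusted p = 0.00384). The channel gene nan, of the sound-sensing neurons of the antenna, measured 5.27, 5.31 and 5.23 in 12g pupae and 5.81, 5.89 and 5.82 in 1g pupae (log2 fold change -0.57, adjusted p = 0.0106). nompA, whose product ties the sensory dendrite to the cuticle, fell by 0.73 (adjusted p = 0.00808), a call lost without 1g replicate 1 (-0.65, adjusted p = 0.0559), and its second probe set gave -0.28 and was not called. The TRP channel gene wtrw rose by 0.84 (adjusted p = 0.0143), a call lost without 12g replicate 3 (0.60, adjusted p = 0.0805) and with the term (0.57, adjusted p = 0.237). The signal of nan was under the array median in every group, and neither pyx nor nan was called against 6g pupae (-0.67, adjusted p = 0.199 and -0.34, adjusted p = 0.229) or with the term (-0.56, adjusted p = 0.239 and -0.24, adjusted p = 0.382).

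Dim genes as a whole lay lower at 12g, which touches all receptor lists. With the probe sets split by mean level into 10 bins of equal size, the median log2 fold change was -0.12, -0.19, -0.21, -0.20 and -0.12 in the 5 dimmest bins and 0.16 and 0.17 in bins 8 and 9. The difference of the second from the first experiment, measured in the open controls, ran from -0.14, -0.18, -0.17 and -0.15 in the 4 dimmest bins to 0.08 and 0.10 in bins 8 and 9. Against this, 57 odorant receptors had a median of -0.14 with 4 lower and 0 higher, and 109 gustatory and ionotropic receptors had a median of -0.19 with 10 lower and 0 higher. Their second-minus-first medians were -0.14 and -0.17, and with the term 0 genes of either list were called. Without 1g replicate 1 the counts of lower genes were 0 and 1.

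**Figure D5:**
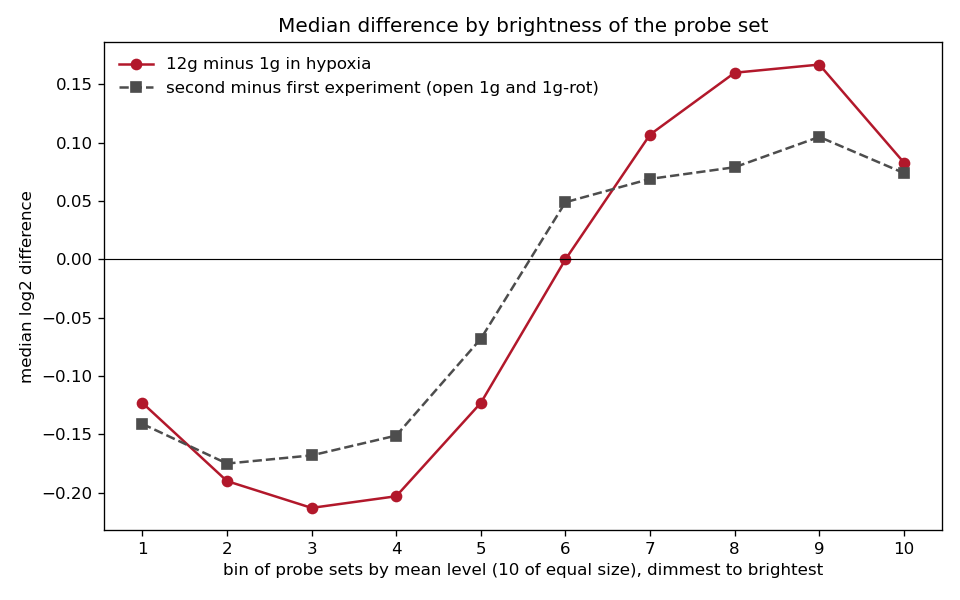
Median log2 difference of all probe sets in 10 bins of mean signal, for 12g against 1g in hypoxia and for the second against the first experiment in the open 1g and 1g-rot controls. Both lines are below 0 in bins 1 to 5 and above 0 in bins 7 to 10.

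Of the brighter sensory genes, odorant binding proteins, which carry odours in the fluid around the sensory neurons, went both ways. Of 49 measured 6 rose and 4 fell, shares close to those of all genes (10.5% and 8.78%), and 2 rose and 1 fell without 1g replicate 1. Obp47b measured 5.74, 6.36 and 6.13 in 12g pupae and 8.59, 7.59 and 8.16 in 1g pupae (log2 fold change -2.04, adjusted p = 0.000298). Obp57a measured 8.83, 8.29 and 8.81 in 12g pupae and 6.22, 7.10 and 7.19 in 1g pupae (log2 fold change 1.81, adjusted p = 0.00587), and its call was lost without 1g replicate 1 (adjusted p = 0.0536). Of 20 photoreceptor genes 4 rose and 2 fell (median 0.31, and 2 and 0 without either 12g replicate 1 or 1g replicate 1), with the arrestin gene Arr1 at 0.51 (adjusted p = 0.00516) and the ceramide kinase gene Cerk at 1.54 (adjusted p = 0.00182). Both were higher at 12g than at 6g, by 1.30 and 2.30 (adjusted p = 1.66e-07 and 2.95e-05).

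Muscle and adhesion genes showed smaller differences. Of 29 flight muscle genes 9 rose and 1 fell (median 0.27), beside 10.5% and 8.78% of all genes. Without 1g replicate 1 the counts were 5 and 0. Prm, the thick filament protein paramyosin, measured 13.87, 13.91 and 13.74 in 12g pupae and 13.13, 12.90 and 13.21 in 1g pupae (log2 fold change 0.76, adjusted p = 0.00573). Its second, bright probe set gave -0.06 and was not called. The muscle list was also higher in the second than in the first experiment in open controls (median 0.37), and with the term its median was -0.10, with 2 higher and 3 lower, and Prm at 0.21 (adjusted p = 0.417). Of 28 genes of integrins, cadherins and basement membrane 5 rose and 3 fell (2 and 1 without 1g replicate 1). SPARC, a collagen-binding protein of the basement membrane, measured 11.97, 11.99 and 12.00 in 12g pupae and 12.73, 12.49 and 12.66 in 1g pupae, a small but steady log2 fold change of -0.64 (SE 0.0958, adjusted p = 0.00013). The integrin genes scb and mys rose by 0.90 (adjusted p = 0.000666) and 0.79 (adjusted p = 0.00766), and mys lost the call with the term (0.29, adjusted p = 0.389).

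Among the called regulators of growth, patterning and the clock more rose than fell. Of all genes 10.5% rose and 8.78% fell. Of 23 morphogen and Notch pathway genes 6 rose and 0 fell (median 0.23), and 1 rose without 1g replicate 1. The transcriptional repressor aop measured 11.74, 11.44 and 12.29 in 12g pupae and 7.62, 10.50 and 9.65 in 1g pupae (log2 fold change 2.57, adjusted p = 0.00645), a call lost without the low 1g replicate 1 (1.75, adjusted p = 0.0782). aos, the secreted inhibitor of the EGF receptor, measured 8.23, 8.16 and 8.41 in 12g pupae and 7.45, 7.31 and 7.47 in 1g pupae (log2 fold change 0.86, adjusted p = 0.00112). Of 11 clock genes 2 rose and 0 fell, namely the clock transcription factors vri, at 1.44 (adjusted p = 0.00338), and Pdp1, at 1.08 (adjusted p = 0.00638). Within the second experiment vri was higher at 12g than at 6g by 1.56 (adjusted p = 0.00261), whereas Pdp1 gave 0.21 (adjusted p = 0.816) and lost the call with the term (0.40, adjusted p = 0.365). CycE, the cyclin of the start of DNA replication, rose by 1.38 (adjusted p = 0.00412) on a probe set close to the dim end of the arrays, and 12g against 6g gave 0.56 (adjusted p = 0.409). It was not called with the term (0.48, adjusted p = 0.314).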

How the data were processed

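RNA of late Oregon R pupae was hybridised to Affymetrix Drosophila Genome 2 arrays, 1 pool an array. The deposited log2 values were made by the authors with RMA and carry 2 decimals. Tools and versions behind them are not given in the sources used here. The 6 arrays compared, and those of the other groups, were grouped by their labels, and 0 value columns were left unmapped. The members and the gene lists were chosen with earlier results of these data known. The adult cuticle gene Acp65Aa was moved from the accessory gland list, where its symbol had put it, to the cuticle list after the files were read.

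Of 18952 probe sets, 183 controls were left out and 18769 tested. Annotation gave 1 symbol to 13647, several to 402 and none to 4720, and 13544 matched the gene table by identifier. Genes (11982) were read on the probe set with 1 symbol that is brightest over the LDC arrays. One limma 3.58.1 fit (lmFit and eBayes, two-sided, R 4.3.3) held all 40 LDC arrays in 16 groups, with Benjamini-Hochberg adjustment over all tested probe sets and a threshold of 0.05. SE is limma's moderated error. The number of arrays limits the precision. Calling was tested on simulated data. Named genes are the 10 largest rises and 10 largest falls among called, non-overlapping genes, and up to 4 members with the smallest p of each list described. The markers Act88F, Sgs3, alphaTry, betaTry, dj, Mst87F, Yp1, Yp2 and Yp3 come from the marker lists. Alternatives were a term for the second experiment, a replicate block, only the groups compared, quantile normalization, median centring, leaving out probe sets with a mean under 6, trend and robust settings, an unadjusted p under 0.001, gene means over all probe sets, and each array left out. Quantile normalization of the list medians was added after the data were seen. Figures were drawn with Python 3.11.15.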

Additional observations from a re-analysis of the deposited data

Results flagged for a closer look

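For 2714 probe sets the log2 fold change of 12g against 1g differed between closed and open containers by limma's interaction test (1113 with a more positive and 1601 with a more negative value in the closed container). The open 12g arrays belong to the first experiment and the closed 12g arrays to the second, so the container and the experiment cannot be told apart in this difference. With the experiment term 340 were called, 76 of them among the 2714, and without open 1g replicate 2 the count was 407. Of the 71 genes named above by the rule for named genes 35 passed this test, beside 14.4% of all genes. These genes were named for their change on the same hypoxia arrays, so nothing is read from that count. Each value below is the log2 fold change in the closed container minus that in the open one.

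More positive in the closed container were Acp36DE (3.75), Spn38F (3.65), Ebp (3.62), djl (3.3), Acp98AB (2.97), Acp76A (2.76), Kr-h1 (2.67), Eip93F (2.19), S6k (2.18), Akt (2.15), InR (2.13), bnl (2.05), foxo (1.84), CycE (1.84), Hr39 (1.80), Ald1 (1.78), Pdp1 (1.62), REPTOR (1.58), ple (1.36), Gasp (1.36), mys (1.15), Prm (1.11), Eip63E (0.96), scb (0.95), aos (0.89) and Gclc (0.80). More negative were CG14095 (-2.85), CG13047 (-2.09), pyx (-1.73), Obp47b (-1.56), nan (-1.17), mRpL49 (-0.92), SPARC (-0.70), Cpr47Eg (-0.67) and RpS7 (-0.42). In open containers the fold changes of these genes were mostly small. The choice of the genes favours this, since they were named for their change in hypoxia and kept for passing this test. Nothing is therefore read from the size or sign of the open values, which are given as description. For example, Kr-h1 gave 2.96 in hypoxia and 0.29 in the open container, Spn38F 3.67 and 0.03, mRpL49 -0.83 and 0.09, and SPARC -0.64 and 0.06, in the same order. For several genes the open value had the opposite sign, as for djl (1.93 in hypoxia, -1.37 open), S6k (1.54 in hypoxia, -0.64 open), Akt (1.47 in hypoxia, -0.67 open), pyx (-1.24 in hypoxia, 0.49 open) and nan (-0.57 in hypoxia, 0.60 open). The open 1g group holds arrays of both experiments, and the open 12g arrays are of the first. Part of the difference between experiments therefore enters the open values, with its sign reversed from the closed ones. In open controls the second experiment differed from the first by 0.69 for djl, -0.68 for pyx and -0.33 for nan. The part of this difference in the opposite signs was not tested.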

How the results depend on the processing

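The count of calls in 12g against 1g was 1619 with the experiment term, 1358 at an unadjusted p under 0.001 and 1209 to 3382 without a single array. For 12g against 1g-rot it was 1702 with the term, 1421 at p under 0.001 and 1612 to 2267 without an array, and for 12g against 6g 1557 at p under 0.001 and 1301 to 2101 without an array. For 6g against 1g it was 136 with the term, 1520 with a replicate block, 2199 with only the groups compared and 157 to 557 without an array. The container difference gave 340 with the term, 863 with only the groups compared, 1647 without dim probe sets, 866 at p under 0.001, 1489 on gene means and 407 to 4034 without an array. For 1g-rot against 1g it was 9 at p under 0.001 and 0 under each other alternative. Median centring turned the split of 12g against 1g to 1589 higher and 1197 lower (1527 and 1764 as deposited), and that of 12g against 1g-rot to 1595 and 946. The median over all probe sets was -0.09, and -0.06 after centring. The replicate numbers do not pair the samples: deviations of same-numbered 12g and 1g arrays correlated at -0.21, -0.43 and -0.32, and the replicate block gave 3857 calls, with all 143 genes named by the rule still called.

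Of these 143 genes 66 were called with the term, 75 lost the call and 2 changed sign, Ald1 (-0.23) and CycD (-0.037). Quantile normalization lost 23 calls, centring 10, and the removal of single arrays 16 to 63. In all, 50 genes were called with the term and without each of the 6 arrays. The cause of these changes was not tested. With 3 arrays a group and 2 at 6g, a gene not called may still differ, and probe sets near the dim end of the arrays have compressed values.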
